A study of Arabidopsis thaliana with 15 samples.

Results

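In roots of Arabidopsis thaliana, 78 of the 22746 probe sets on the array were higher after 1.5 h of ammonium than before any nitrogen was given, while the same probe sets were little or not higher after 1.5 h of nitrate. They were chosen from group means of the deposited log2 values by 3 criteria: a mean after 1.5 h of ammonium at least 0.8 above the mean before supply, a mean after 1.5 h of nitrate less than 0.3 above it, and a highest group mean of at least 6. Of 2 probe sets for GAT1_2.1, 1 met these criteria and was left out by rule. The 78 members comprised 29 probe sets with 1 listed gene, all different genes, 3 with several listed genes and 46 with none.

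The plants were Columbia-0, grown hydroponically to growth stage 5.10 and then held for 26 h without nitrogen. Nitrate or ammonium was then given at 1 mM, and roots were harvested at the end of the nitrogen-free period, before supply, and after 1.5 h (early) or 8 h (late) of either ion, in 5 groups of 3 biological replicates and 15 samples in all. Each sample pooled the roots of at least 5 plants and was measured on 1 Affymetrix ATH1 array, so plant-to-plant variation within a pool was not seen. All groups shared the genotype and the nitrogen-free period. The ions that accompanied nitrate and ammonium are not given in the sources used here. No unsupplied roots of the early or late time were analysed here, so that elapsed time and time of day are part of every difference from the starting roots.

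Ammonium is a nitrogen source that root cells assimilate directly through glutamine synthetase, while nitrate must first be reduced to it. Nitrate itself acts as a signal through a dedicated transcription programme, and ammonium uptake is known to acidify the medium around the root and to become toxic in excess. Calcium-binding proteins, receptor-like kinases, WRKY factors and enzymes of hormone turnover are among the gene classes that plants switch quickly under mechanical, chemical and microbial stimuli.

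At 1.5 h the set was close to flat with nitrate and clearly higher with ammonium, as its definition requires. The median member stood 1.07 log2 above the roots before supply with ammonium (quartiles 0.89 and 1.38, range 0.80 to 2.65) and 0.00 with nitrate (range -0.68 to 0.29), and 38 members were below the level before supply with nitrate. At 8 h, a time whose samples entered the choice only through the highest group mean, 36 of the 78 members (46.2%) were higher in roots with ammonium than in roots with nitrate, and 2 (2.56%) were lower (limma, Benjamini-Hochberg adjusted p below 0.05). Over all probe sets 10.7% were called in that comparison, 5.28% higher and 5.4% lower. Among the 36, 249467_at reached the level of 6 through its late ammonium mean alone, and without it 35 of 77 members were higher. The calls among listed genes were 9, all higher: AT4G01870, AT5G05600, AT5G39670, AT1G19020, AT1G30700, AT2G23270, AT1G72890, AT2G32020 and AT3G46690.

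**Figure D1:**
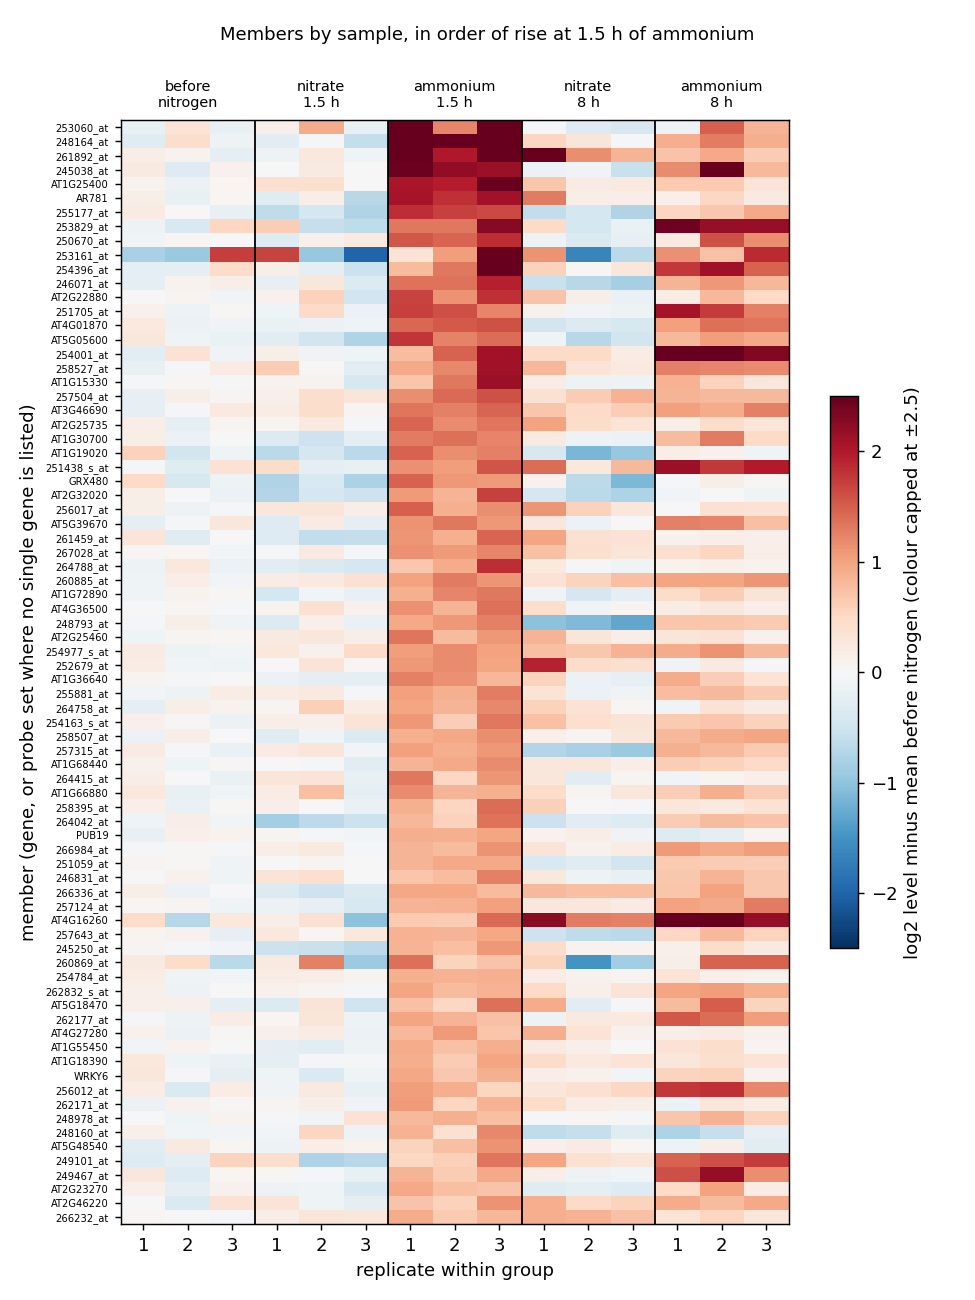
Heat map of the 78 members (rows) in the 15 samples (columns, grouped by treatment and time); colour gives each log2 value minus the member's mean before supply. The 3 columns of early ammonium are raised throughout, as the choice of members requires, and at 8 h the ammonium columns are raised for only some of the rows.

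Members at the edges of the criteria show how they divide neighbouring probe sets. On the ammonium criterion 266232_at, AT2G46220 and AT2G23270 lay just inside at 0.802, and 256243_at, AT2G41730 and 255511_at lay just outside at 0.794. On the nitrate criterion the nearest members were 257504_at at 0.292, 253060_at at 0.286 and 264758_at at 0.280, and the nearest probe sets outside were 247433_at at 0.318, 258221_at at 0.322 and AT4G20830 at 0.335. The level criterion kept 250670_at at 6.062, 258395_at at 6.091 and 253060_at at 6.213, and it left out 17 probe sets that met the other criteria, the nearest of which were 262325_at at 5.983, 247949_at at 5.879 and AT3G47480 at 5.760. Array values have no true zero and probe sets differ in affinity, so levels of different members are not set against each other here. The arrays' lower quartiles were 4.36 to 4.52, and a mean below 5 is taken here as not shown to be above background, which applied to the lowest group mean of 7 members and to the mean before supply of 4.

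Of the markers of root and leaf only a few had a named probe set. The median of 2 root genes, EXPA7 and PYK10, was 11.09 to 11.71 over the 15 samples, and the leaf photosynthesis gene RCA, the 1 measured leaf marker of 6, was 5.82 to 6.46. RCA was not below the level of 5, and these probe sets cannot be ranked against each other. The array medians were 6.762 to 6.833. Roots were measured as bulk tissue, so more cells of a type and more RNA per cell cannot be told apart in any value below. For the 78 members, the sample medians above the mean before supply were 0.03, 0.11 and -0.16 with early nitrate and 1.01, 0.92 and 1.22 with early ammonium. At 8 h they were 0.36, 0.09 and 0.04 with nitrate and 0.65, 0.81 and 0.63 with ammonium. The 3 samples with ammonium at 8 h lay above the 3 with nitrate, and replicate 1 of late nitrate stood apart from its group, as the highest of its group for 61 of the 78 members. Replicate 2 of late ammonium was the highest of its group for 50 members, and replicate 3 of early nitrate the lowest of its group for 47.

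**Figure D2:**
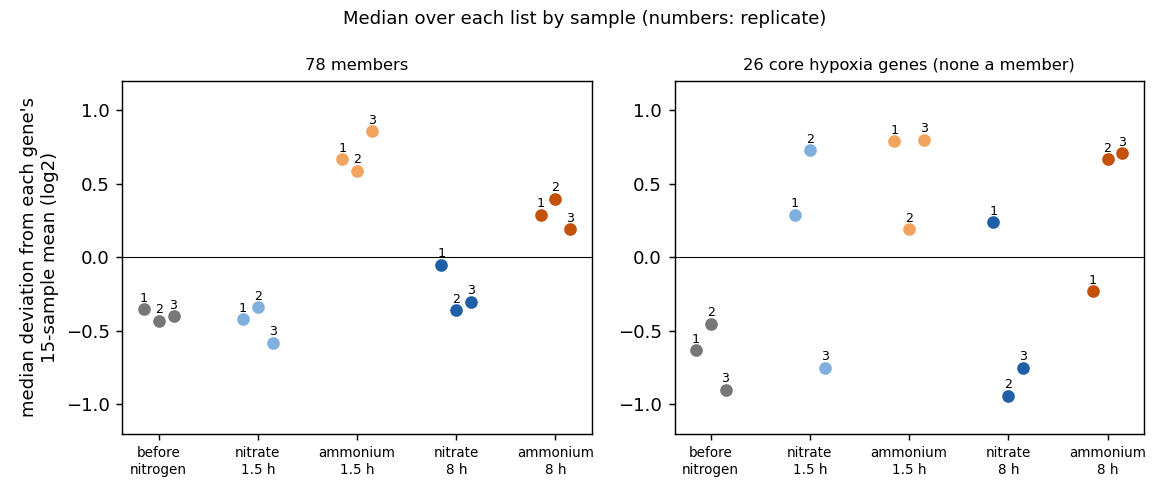
Median over the 78 members, and over 26 hypoxia genes that are not members, of each sample's deviation from the 15-sample mean (log2); each point is 1 sample. At 8 h the members' medians do not overlap between the ions. The hypoxia medians overlap at that time only through replicate 1 of each ion (0.24 with nitrate, -0.23 with ammonium). Replicate 1 of late nitrate is the highest of its group in both lists. The part of low oxygen in the members' values was not tested.

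Proteins of signalling and perception made up 7 of the 29 listed members, and they stood 0.81 to 1.17 log2 above the roots before supply with early ammonium. AT5G39670 codes for an EF-hand protein, a class that binds calcium. It read 6.56, 6.74 and 7.07 before supply, 6.46, 7.0 and 6.54 with early nitrate, 7.91, 8.10 and 7.87 with early ammonium, 7.08, 6.65 and 6.79 with late nitrate, and 8.05, 8.02 and 7.55 with late ammonium. All 6 samples with ammonium lay above all 9 without it. Its level at 8 h was 1.03 ± 0.17 log2 (SE of the fit) higher with ammonium than with nitrate, 2.04-fold, with a limma adjusted p of 0.000551.

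AT1G72890 codes for a TIR-NBS protein, a form related to intracellular immune receptors. Its values were 7.22, 7.39 and 7.33 before supply, 6.88, 7.24 and 7.13 with early nitrate, 8.19, 8.53 and 8.62 with early ammonium, 7.23, 6.89 and 7.06 with late nitrate, and 7.76, 7.92 and 7.63 with late ammonium. Samples with ammonium again lay above all others at both times. The difference at 8 h was 0.71 ± 0.12 log2, 1.64-fold, at a limma adjusted p of 0.00099.

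The other 5 signalling members did not pass the test at 8 h. AT4G27280, also an EF-hand calcium-binding protein, was 8.78, 8.54 and 8.71 before supply and 9.49, 9.74 and 9.37 with early ammonium, but 8.83, 8.89 and 8.78 with late ammonium against 9.59, 9.03 and 8.78 with late nitrate. Those groups at 8 h overlapped, with a difference of -0.30 ± 0.16 (limma adjusted p of 0.293), so the pair of EF-hand members had the same early pattern and differed in sign at 8 h, a contrast between genes that was not tested. The receptor-like kinases AT1G66880 and AT1G18390 stood 0.97 ± 0.20 and 0.84 ± 0.11 above the level before supply with early ammonium. At 8 h AT1G66880 differed between the ions by 0.45 ± 0.20 (adjusted p of 0.183) and AT1G18390 by -0.00 ± 0.11 (adjusted p of 0.994). AT5G48540, of a secreted family related to receptor-like kinases, was 6.79, 6.99 and 7.36 with early ammonium and 6.10, 6.38 and 5.96 with late ammonium, a range that overlaps its 5.97, 6.45 and 6.28 before supply.

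AT5G18470, a protein with a mannose-binding lectin domain, changed its call with 1 sample. It read 6.94, 5.75 and 5.99 with late nitrate and 6.82, 7.53 and 6.58 with late ammonium, where the first nitrate sample was the only one to reach the ammonium range. The difference was 0.75 ± 0.31 with a limma adjusted p of 0.159, and without replicate 1 of late nitrate it was 1.11 with an adjusted p of 0.0238.

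Regulators of transcription and protein turnover numbered 4, and 0 of them passed the test at 8 h (limma; 2 had an unadjusted p below 0.05). WRKY6 is a transcription factor that represses the phosphate exporter gene PHO1 and is linked to senescence and defence. Its values were 7.78, 7.46 and 7.24 before supply, 7.38, 7.13 and 7.39 with early nitrate, 8.46, 8.16 and 8.37 with early ammonium, 7.65, 7.60 and 7.43 with late nitrate, and 8.04, 8.06 and 7.58 with late ammonium. At 1.5 h the ammonium samples were the highest, and at 8 h the third ammonium sample lay within the nitrate range. The difference at 8 h was 0.34 ± 0.15 (limma adjusted p of 0.183), and it was 0.50 (adjusted p of 0.0419) without replicate 3 of late ammonium.

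GRX480 is a glutaredoxin that binds TGA transcription factors and links redox state to salicylate and jasmonate responses. It read 7.91, 7.01 and 7.29 before supply, 6.65, 7.02 and 6.61 with early nitrate, 8.88, 8.49 and 8.48 with early ammonium, 7.52, 6.76 and 6.29 with late nitrate, and 7.37, 7.56 and 7.45 with late ammonium. The level with ammonium at 8 h was within the range before supply, 0.05 above its mean, while that with nitrate was 0.55 below it (-0.55). The ion difference was 0.60 ± 0.26 (limma adjusted p of 0.177), and 0.93 (adjusted p of 0.0133) without replicate 1 of late nitrate.

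AT2G22880 codes for a protein with a VQ motif, by which such proteins bind WRKY factors. It was 5.39, 5.45 and 5.32 before supply, 5.49, 5.96 and 4.91 with early nitrate, 7.08, 6.52 and 7.21 with early ammonium, 6.11, 5.53 and 5.22 with late nitrate, and 5.58, 6.20 and 5.89 with late ammonium. The ions overlapped at 8 h, with a difference of 0.28 ± 0.26 (limma adjusted p of 0.609). PUB19, a U-box ubiquitin ligase of stress signalling, was high at the early time alone, with 6.13, 6.44 and 6.40 before supply, 7.22, 7.21 and 7.30 with early ammonium, and 6.0, 6.09 and 6.38 with late ammonium. With nitrate PUB19 was 6.39, 6.30 and 6.25 at 1.5 h and 6.40, 6.49 and 6.24 at 8 h, so that only the 3 samples with early ammonium stood out.

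Enzymes numbered 6, of which 4 were higher with ammonium at 8 h. AT5G05600 belongs to the 2-oxoglutarate-dependent oxygenases that inactivate jasmonate by hydroxylation. It read 8.63, 8.24 and 8.18 before supply, 8.07, 7.89 and 7.59 with early nitrate, 10.14, 9.59 and 9.74 with early ammonium, 8.25, 7.65 and 7.89 with late nitrate, and 9.16, 9.40 and 9.29 with late ammonium. All ammonium samples exceeded all others, and both nitrate means were below the mean before supply, by -0.50 at 1.5 h and -0.42 at 8 h. The ion difference at 8 h was 1.35 ± 0.17 log2, 2.55-fold, at a limma adjusted p of 4.58e-05.

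AT1G30700 is a berberine-bridge-enzyme-like oxidase. Its values were 7.82, 7.52 and 7.67 before supply, 7.33, 7.15 and 7.45 with early nitrate, 8.97, 9.05 and 8.89 with early ammonium, 7.89, 7.54 and 7.52 with late nitrate, and 8.46, 8.96 and 8.16 with late ammonium. At 8 h the ammonium samples lay above the nitrate samples, by 0.87 ± 0.16 log2 or 1.83-fold, with a limma adjusted p of 0.00147.

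AT3G46690 codes for a UDP-glycosyltransferase, an enzyme class that attaches sugars to hormones and secondary metabolites. It read 5.95, 6.12 and 6.40 before supply, 6.35, 6.59 and 6.22 with early nitrate, 7.49, 7.42 and 7.61 with early ammonium, 6.85, 6.64 and 6.77 with late nitrate, and 7.18, 7.08 and 7.41 with late ammonium. Both ions stood above the level before supply at 8 h, with ammonium the higher by 0.47 ± 0.12, 1.39-fold (limma adjusted p of 0.0188). This call did not hold without replicate 2 of nitrate (adjusted p of 0.0874), replicate 3 of nitrate (0.0504) or replicate 3 of ammonium (adjusted p of 0.1) at 8 h.

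AT2G32020 is a GNAT-family acetyltransferase and is also on the list of mitochondrial dysfunction genes. It was 6.72, 6.56 and 6.43 before supply, 5.83, 6.15 and 6.05 with early nitrate, 7.64, 7.41 and 8.28 with early ammonium, 6.15, 5.90 and 5.79 with late nitrate, and 6.5, 6.58 and 6.46 with late ammonium. Its nitrate samples lay below those before supply at both times, and ammonium at 8 h was level with the roots before supply (-0.06). The ion difference at 8 h was 0.57 ± 0.17, 1.48-fold, at a limma adjusted p of 0.0405. The adjusted p of AT2G32020 was 0.118 and 0.152 without nitrate replicates 2 and 3, and 0.0926, 0.121 and 0.0813 without ammonium replicates 1, 2 and 3 at 8 h.

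The other 2 enzymes did not pass the test at 8 h. AT4G16260, of the beta-1,3-glucanase family that degrades callose and fungal walls, was higher at 8 h than at 1.5 h with either ion: 8.62, 8.86 and 7.46 became 10.74, 9.77 and 9.73 with nitrate, and 9.14, 9.12 and 9.89 became 11.04, 11.39 and 10.68 with ammonium. Before supply it was 8.93, 7.76 and 8.75. Its ion difference of 0.96 ± 0.38 at 8 h had a limma adjusted p of 0.141, and the ammonium range began just below the highest nitrate sample. The methyltransferase AT1G55450 was 9.98, 9.79 and 9.96 with early ammonium and differed by 0.17 ± 0.09 between the ions at 8 h (adjusted p of 0.324).

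**Figure D3:**
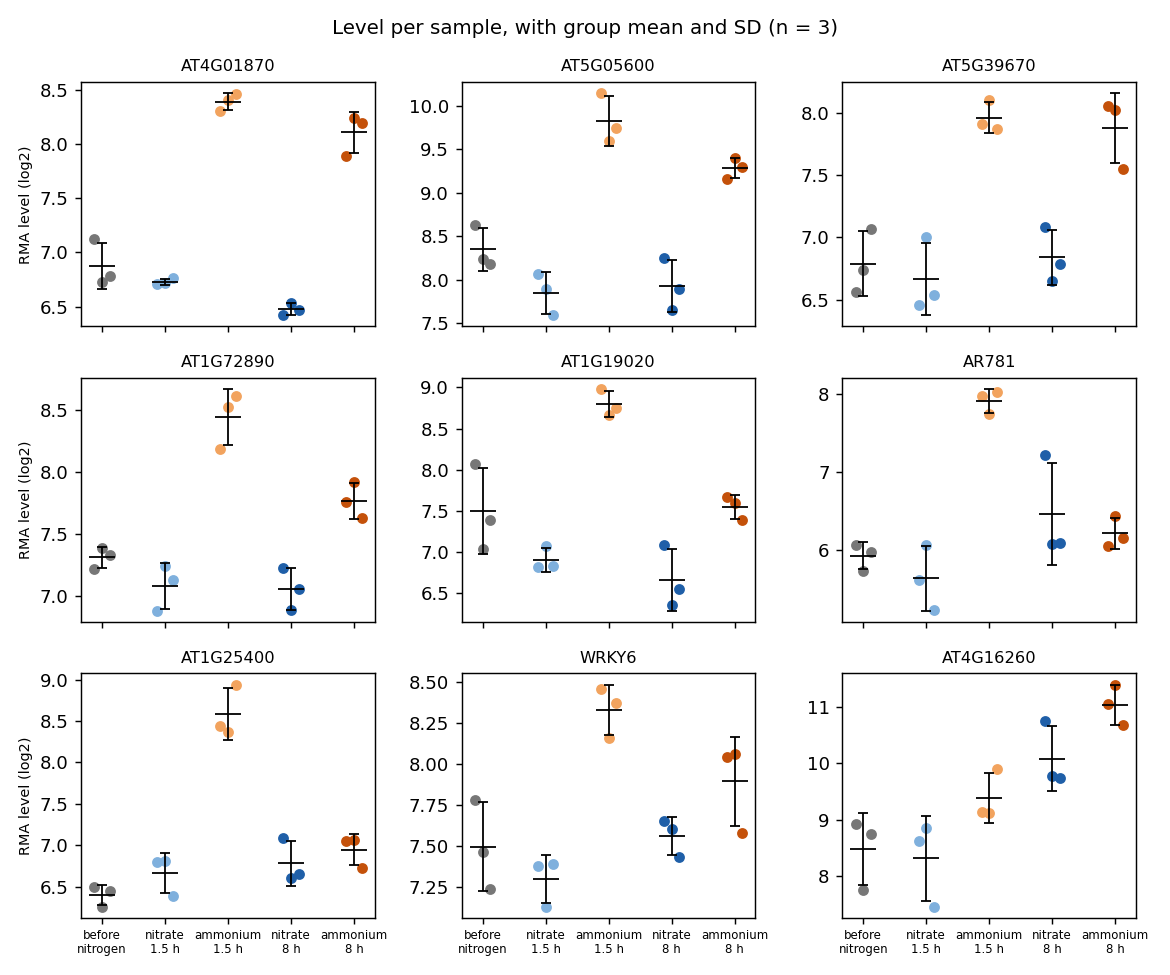
Deposited log2 values of selected listed members, with 1 point per sample in the 5 groups (before supply, nitrate and ammonium at 1.5 h and 8 h) with the group mean and SD. All panels show the ammonium samples at 1.5 h above the nitrate samples, and the panels differ in whether ammonium is still the higher at 8 h.

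The remaining 12 listed members code for proteins with other or unknown roles, and 3 of them were higher with ammonium at 8 h. AT4G01870, related to bacterial TolB, had the smallest limma adjusted p of the listed members. Its values were 7.12, 6.73 and 6.78 before supply, 6.71, 6.72 and 6.76 with early nitrate, 8.31, 8.41 and 8.46 with early ammonium, 6.42, 6.53 and 6.47 with late nitrate, and 7.89, 8.24 and 8.20 with late ammonium. No nitrate sample came near an ammonium sample at either time. The difference at 8 h was 1.64 ± 0.10 log2, 3.11-fold, at an adjusted p of 2.66e-08.

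AT2G23270 read 5.82, 5.48 and 5.80 before supply, 5.58, 5.59 and 5.30 with early nitrate, 6.64, 6.46 and 6.41 with early ammonium, 5.40, 5.45 and 5.38 with late nitrate, and 6.19, 6.70 and 5.89 with late ammonium. Its ammonium samples lay above all others. The ion difference at 8 h, 0.85 ± 0.15 or 1.81-fold (limma adjusted p of 0.0014), stands beside a distance of 0.80 ± 0.15 above the roots before supply with early ammonium.

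AT1G19020 was 8.07, 7.04 and 7.39 before supply, 6.82, 7.08 and 6.83 with early nitrate, 8.98, 8.67 and 8.75 with early ammonium, 7.09, 6.36 and 6.55 with late nitrate, and 7.67, 7.60 and 7.39 with late ammonium. At 8 h ammonium was within the range before supply and nitrate was the lower, by -0.83 against the mean before supply. The ion difference was 0.88 ± 0.21, 1.85-fold (limma adjusted p of 0.0125). It did not pass without replicate 2 of nitrate (adjusted p of 0.0724), replicate 3 of nitrate (0.0536) or replicate 1 of ammonium (0.0521) at 8 h.

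AT1G25400 and AR781, the listed members furthest above the roots before supply with early ammonium, did not pass the test at 8 h. AT1G25400 read 6.49, 6.26 and 6.45 before supply, 6.80, 6.81 and 6.39 with early nitrate, 8.44, 8.37 and 8.94 with early ammonium, 7.09, 6.6 and 6.65 with late nitrate, and 7.05, 7.06 and 6.73 with late ammonium. It stood 2.19 ± 0.17 log2 above the level before supply with early ammonium, and at 8 h the ions overlapped with a difference of 0.17 ± 0.17 (limma adjusted p of 0.638).

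AR781 was 6.06, 5.73 and 5.97 before supply, 5.61, 6.06 and 5.22 with early nitrate, 7.98, 7.74 and 8.02 with early ammonium, 7.22, 6.07 and 6.08 with late nitrate, and 6.04, 6.43 and 6.15 with late ammonium. Its distance from the roots before supply with early ammonium was 1.99 ± 0.26, and the difference between the ions at 8 h was -0.24 ± 0.26 (limma adjusted p of 0.658), or 0.14 without replicate 1 of late nitrate (adjusted p of 0.754). AT2G25735 had a similar course, with 7.78, 7.52 and 7.66 with early ammonium against 6.49, 6.10 and 6.40 before supply and 6.40, 6.57 and 6.29 with early nitrate. At 8 h AT2G25735 was 6.47, 6.78 and 6.63 with ammonium and 7.33, 6.79 and 6.67 with nitrate, a difference of -0.30 ± 0.15 (adjusted p of 0.253).

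AT1G15330, a protein with CBS domains, had the widest spread with early ammonium among the listed members given sample by sample: 5.75, 6.37 and 7.20, against 5.03, 5.09 and 5.01 before supply and 5.14, 5.13 and 4.65 with early nitrate. At 8 h it was 5.24, 4.92 and 4.92 with nitrate and 5.92, 5.62 and 5.33 with ammonium, which do not overlap, and the difference of 0.60 ± 0.26 had a limma adjusted p of 0.184. Several of its values lie near or below the level of 5 at which signal above background is not shown.

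The other 5 of these members stood 0.80 to 1.13 log2 above the roots before supply with early ammonium and did not pass at 8 h. AT1G36640 differed between the ions by 0.56 ± 0.17 at 8 h with a limma adjusted p of 0.052, and without replicate 1 of nitrate or replicate 3 of ammonium the adjusted p was 0.0015 and 0.0263. In all it passed under 6 of 13 alternatives. AT1G68440 was 10.45, 10.41 and 10.32 with late ammonium and 10.13, 10.13 and 10.01 with nitrate, groups that did not overlap, with a difference of 0.31 ± 0.09 and an adjusted p of 0.0515. It passed under 5 of 13 alternatives, with adjusted p of 0.0219 to 0.0439, and stands at the threshold. AT4G36500, AT2G25460 and AT2G46220 differed by 0.08 ± 0.14, -0.18 ± 0.15 and 0.23 ± 0.18, with adjusted p of 0.815, 0.556 and 0.521.

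Most of the members called higher with ammonium at 8 h, 26 of 36, had no listed gene and can be given here by probe set only. The largest difference was that of 254001_at, which read 5.48, 6.13 and 5.68 before supply, 5.91, 5.67 and 5.65 with early nitrate, 6.53, 7.24 and 7.85 with early ammonium, 6.23, 6.25 and 5.94 with late nitrate, and 8.63, 8.78 and 8.08 with late ammonium. Its late ammonium samples lay above its early ones and above all others. It was 2.36 ± 0.26 log2 or 5.14-fold higher with ammonium than with nitrate at 8 h (limma adjusted p of 1.07e-05). Next came 253829_at, at 8.51, 8.24 and 8.25 with ammonium and 6.54, 5.64 and 5.91 with nitrate at 8 h, a difference of 2.3 ± 0.34 (adjusted p of 0.000192).

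By rise with early ammonium the leading members without a listed gene were 253060_at, 248164_at and 261892_at. The first, 253060_at, read 3.39, 3.92 and 3.38 before supply and 6.99, 4.79 and 6.85 with early ammonium, so its distance of 2.65 ± 0.49 starts from values not shown to be above background. The second, 248164_at, was 5.67, 6.41 and 5.84 before supply, 5.70, 5.95 and 5.38 with early nitrate, and 8.46, 8.48 and 8.72 with early ammonium. At 8 h 248164_at was 6.87, 7.25 and 6.88 with ammonium and 6.5, 6.27 and 5.92 with nitrate, higher by 0.77 ± 0.19 (limma adjusted p of 0.0151), a call that did not hold without replicate 3 of nitrate (adjusted p of 0.084) or replicate 2 of ammonium (0.078).

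The third of these, 261892_at, was also high with nitrate, in the late samples. It read 5.18, 5.10 and 4.76 before supply, 4.89, 5.27 and 4.91 with early nitrate, 7.67, 7.02 and 7.67 with early ammonium, 7.55, 6.17 and 5.85 with late nitrate, and 5.73, 5.95 and 5.65 with late ammonium. Replicate 1 of late nitrate was as high as the samples with early ammonium, and the ions overlapped at 8 h, at -0.75 ± 0.31 (limma adjusted p of 0.163). Without replicate 3 of late nitrate the difference was -1.08 (adjusted p of 0.0394).

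The 2 members lower with ammonium at 8 h were also without a listed gene. For 266232_at the values at 8 h were 6.55, 6.73 and 6.48 with ammonium and 7.11, 7.07 and 6.93 with nitrate, a difference of -0.45 ± 0.08 (limma adjusted p of 0.00191). For 252679_at they were 5.62, 5.94 and 5.66 with ammonium and 7.64, 6.17 and 6.12 with nitrate, a difference of -0.90 ± 0.28 at an adjusted p of 0.04999. The latter rests on replicate 1 of nitrate, without which it was -0.40 (adjusted p of 0.054), and it did not pass without replicate 1, 2 or 3 of ammonium (adjusted p of 0.144, 0.0705 and 0.138).

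Not every member separated the samples that chose it when the groups are taken as a whole. In 76 of the 78 the 3 samples with early ammonium lay above the 3 before supply, where 10.6% of all probe sets did so. The exceptions were 253161_at, at 5.68, 5.56 and 8.22 before supply and 6.84, 7.53 and 9.89 with early ammonium, and 249101_at, at 6.6, 6.69 and 7.49 and then 7.44, 7.52 and 8.26. In both, replicate 3 was the highest of each of these groups. Compared within replicate numbers, early ammonium was the higher in all 3 pairs of both. The differences were 1.16, 1.97 and 1.67 for 253161_at and 0.84, 0.82 and 0.77 for 249101_at. By their correlations the numbers paired these 2 groups for replicates 1 and 3 but not for replicate 2. Both groups entered the choice of members, so these pairs are a description. An SD above 0.5 before supply or with early ammonium was seen in 11 members, among them AT1G15330, AT1G19020 and AT4G16260.

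Between 1.5 h and 8 h of ammonium the members' values spread out. These values are a description because the roots before supply also entered the choice. The rule also required early ammonium to be at least 0.8 above the level before supply and set no such limit at 8 h. A lower median, a wider spread at 8 h and a highest mean with early ammonium are therefore in part built in. At 8 h of ammonium the median member stood 0.72 log2 above the level before supply (quartiles 0.29 and 1.02, range -0.52 to 2.73). There were 31 members (39.7%) still at least 0.8 above it, among the listed genes AT1G30700, AT2G46220, AT3G46690, AT4G01870, AT4G16260, AT5G05600, AT5G18470 and AT5G39670. A further 25 (32.1%) were 0.3 to 0.8 above it, WRKY6 among them. The last 22 (28.2%) were less than 0.3 above it, among them AR781, GRX480, PUB19, AT2G25735 and AT4G27280, and 4 of these were at or below it. The highest group mean was that of early ammonium in 61 members, of late ammonium in 16 and of nitrate in 1.

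With nitrate the members stayed near the level before supply on balance, with a median of 0.15 at 8 h, but they ranged from -1.14 to 1.60. At 8 h of nitrate 27 members were 0.3 or more above the level before supply and 15 were 0.3 or more below it. Among the 36 members higher with ammonium at 8 h, 23 were at least 0.8 above the level before supply with ammonium, and in 11 the nitrate mean was 0.3 or more below that level. In 2 of the 36, AT1G19020 and AT2G32020, the ammonium mean was less than 0.3 above the level before supply.

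The size of the ion difference at 8 h varied widely within the set. Its median was 0.63 log2 (quartiles 0.07 and 1.09, range -0.90 to 2.36), against -0.01 over all probe sets, and 62 members were above 0. The 36 called higher spanned 0.47 to 2.36, with 21 at 1 or more, and in 3 of them the late nitrate mean was below 5, so that the size is less certain. The 40 that did not pass spanned -0.75 to 1.64 with a median of 0.09, and 26 of them were above 0. Samples with ammonium lay above all samples with nitrate at 8 h in 40 members (51.3%) and below them in 3 (3.85%), where 13.8% and 14% of all probe sets did so. Of the 14139 probe sets that met the level criterion, 7.65% were called higher and 7.54% lower.

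**Figure D4:**
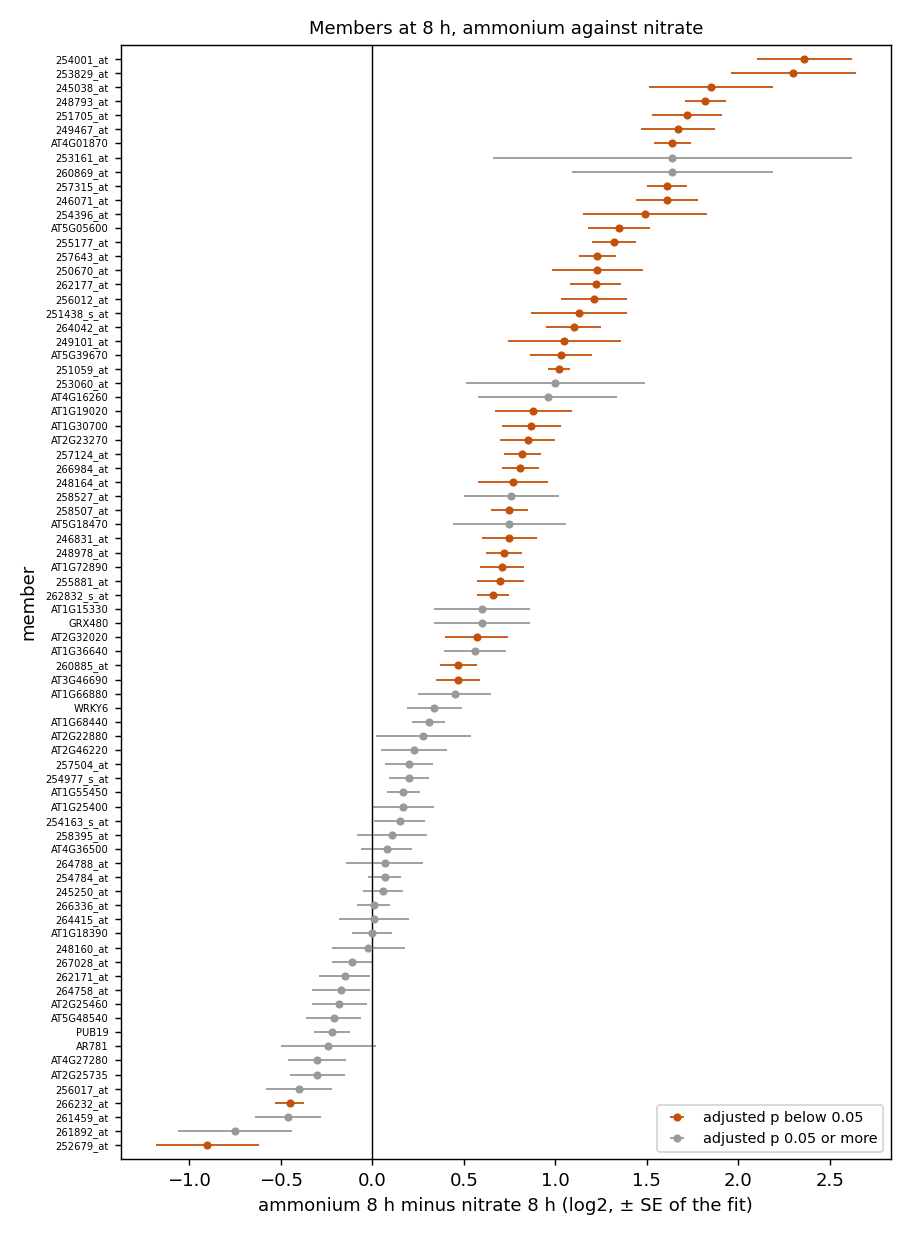
Difference between ammonium and nitrate at 8 h (log2, horizontal axis) for each of the 78 members, ordered by size, with bars of 1 SE of the fit over 3 samples per group; colour marks limma adjusted p below 0.05. The 36 members called higher lie between 0.47 and 2.36, and the 2 called lower at -0.45 and -0.90.

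Other early sets gave other shares in the same comparison at 8 h, though the differences between sets were not tested. Of 297 probe sets at least 0.8 above the level before supply with early ammonium and at least 0.3 above it with nitrate, 83 (27.9%) were higher with ammonium at 8 h and 76 (25.6%) lower, with a median of 0.12. Of 88 that were at least 0.8 above with nitrate and less than 0.3 with ammonium, 2 (2.27%) were higher with ammonium at 8 h and 75 (85.2%) lower, with a median of -0.94.

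Further genes of the classes seen among the members were followed in the direct comparison of ammonium with nitrate at 1.5 h, in which limma called 10.7% of all probe sets, 5.08% higher and 5.61% lower with ammonium. Of a list of 21 WRKY factors 3 could be measured. Apart from WRKY6, both were higher with ammonium: WRKY53 by 0.86 ± 0.11 (limma adjusted p of 5.82e-05) and WRKY22, which acts in immune signalling, by 0.47 ± 0.11 (0.014). WRKY22 was also higher with early nitrate than before supply, by 0.41 ± 0.11 (0.0241). Of 3 C2H2 zinc-finger stress regulators 2 were higher, STZ by 1.28 ± 0.29 (adjusted p of 0.00908) and AT3G53600 (1.46e-05). AT3G53600 read 5.58, 5.27 and 5.24 with early ammonium and 4.31, 4.50 and 4.33 with early nitrate, below the level of 5, so the size of its difference is not given. The C2H2 gene AT2G28200 was lower, at -0.47 ± 0.12 (adjusted p of 0.0175), a call that did not hold without replicate 1 or 3 of nitrate (0.0866 and 0.0642) or replicate 1 or 3 of ammonium (0.0879 and 0.0554). WRKY22 did not pass without replicate 2 of nitrate (0.0769) or replicate 3 of ammonium (0.0577). At 8 h, when AT3G53600 was below 5 with either ion, limma called 0 of these 5 genes, with adjusted p from 0.249 to 0.978 and 0 at an unadjusted p below 0.05. STZ was lower with ammonium at 8 h without replicate 3 of late nitrate, at -0.97 (adjusted p of 0.0307).

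Among 8 calmodulin-like and touch-responsive calcium genes 3 were higher with ammonium at 1.5 h: AT1G76640 by 0.92 ± 0.21 (limma adjusted p of 0.00941), CML42 by 0.50 ± 0.11 (0.00518) and CML43 by 0.49 ± 0.08 (0.000505). The other 5 did not pass, and AT1G76640 did not without replicate 3 of ammonium (0.0524). Of the 3, limma called only CML42 above the roots before supply with early ammonium, by 0.42 ± 0.11 (adjusted p of 0.0144). AT1G76640 stood 0.55 ± 0.21 above them (0.11). CML43 was level with them (-0.03 ± 0.08, adjusted p of 0.853) and was lower with early nitrate, at -0.52 ± 0.08 (0.000202). At 8 h limma called 0 of the 8, with 1 at an unadjusted p below 0.05, and 2 of the 8, CML37 and AT3G01830, had means below 5 in every group. Genes that mark mitochondrial dysfunction differed in part. Apart from the member AT2G32020, 4 of 6 were higher with ammonium at 1.5 h and 4 of 6 at 8 h, of which 3, NDB2, AT5G14730 and GSTU25, were higher at both times. AT5G14730 was 1.65 ± 0.11 higher at 1.5 h (adjusted p of 1e-07) and 1.28 ± 0.11 at 8 h (8.39e-07), and the glutathione transferase gene GSTU25 was 1.04 ± 0.13 (7.24e-05) and 1.03 ± 0.13 higher (6.26e-05). Part of these differences was a lower level with nitrate. Against the roots before supply AT5G14730 was 0.54 ± 0.11 with early ammonium and -1.11 ± 0.11 with early nitrate. GSTU25 was 0.30 ± 0.13 (adjusted p of 0.173) and -0.74 ± 0.13 (0.00118). Apart from the member, limma called only AT5G14730 higher with early ammonium than before supply. With early nitrate it called AT5G14730 and GSTU25 lower and AT5G51440 higher. The member's own early values chose it and are not counted here. The count of 4 at 1.5 h was 2 without replicate 3 of early nitrate or of early ammonium, when NDB2 and AT2G21640 lost their calls, and NDB2 lost its early call without any 1 of the 6 early samples (adjusted p of 0.0539 to 0.165). AT5G51440 of that list was lower with ammonium at 1.5 h, at -0.79 ± 0.12 (adjusted p of 0.000388), and higher at 8 h by 0.43 ± 0.12 (0.0317), which did not hold without nitrate replicate 2 or 3 or any 1 of the ammonium replicates (adjusted p of 0.0614 to 0.128).

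Of 24 genes that respond to low sugar through SnRK1 signalling 6 were measured. Among these, 4 were higher with ammonium than with nitrate at 1.5 h, and 1 at 8 h. AT5G38710, a proline dehydrogenase gene, was higher at both times, by 1.51 ± 0.13 (limma adjusted p of 1.17e-06) and 1.70 ± 0.13 (1.82e-07). AT3G15450 was higher at 1.5 h by 0.75 ± 0.13 (0.000844) and BZIP53, a transcription factor, by 0.48 ± 0.09 (0.00192). Neither AT3G15450 nor BZIP53 passed at 8 h (adjusted p of 0.473 and 0.578). Unlike the members, AT5G38710, AT3G15450 and BZIP53 were also above the roots before supply with early nitrate. They stood 0.71 ± 0.13 (limma adjusted p of 0.00118), 1.16 ± 0.13 (7.38e-06) and 0.56 ± 0.09 (0.000323) above that level.

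Nitrate-induced genes were followed as a check of the supply. All 5 that were measured were called higher by limma with early nitrate than before supply, and 4 of them also with early ammonium. In each of these comparisons 5.97% of all probe sets were called higher. AT1G25550 stood 2.26 ± 0.12 and AT1G68670 1.36 ± 0.10 above that level with early ammonium. These 2 did not pass between the ions at 1.5 h (limma adjusted p of 0.851 and 0.19), so they do not tell the ions apart at that time. Of 5, 3 were lower with ammonium than with nitrate at 1.5 h and all 5 at 8 h, of which AT1G68670 (-0.35 ± 0.10, limma adjusted p of 0.0413) did not pass without nitrate replicate 1 or 2 or any 1 of the ammonium replicates (adjusted p of 0.0802 to 0.171). AT3G25790, a repressor gene of the nitrate response, was 9.31, 9.42 and 9.23 with early nitrate and 3.98, 3.83 and 3.65 with early ammonium (limma adjusted p of 2.97e-14). Its ammonium values are below 5, so no size is given. At 1.5 h the 6-phosphogluconate dehydrogenase genes AT5G41670 and AT1G64190 were lower by -1.39 ± 0.07 (4.73e-09) and -1.03 ± 0.06 (3.28e-08). Lists for ammonium assimilation, ammonium transport, jasmonate and phosphate starvation had 0 genes with a named probe set here.

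Genes of the core response to low oxygen moved with some of the same samples and were followed because hydroponic roots can differ in oxygen supply. Of 47 such genes 26 were measured and 0 were members. Their median deviation from the mean of the 15 samples was 0.79, 0.19 and 0.80 with early ammonium and 0.29, 0.73 and -0.75 with early nitrate. At 8 h it was -0.23, 0.67 and 0.71 with ammonium and 0.24, -0.94 and -0.75 with nitrate, and before supply -0.63, -0.45 and -0.90. The members' own medians on that scale were 0.67, 0.59 and 0.86 with early ammonium and -0.42, -0.34 and -0.58 with early nitrate. The choice of members requires that separation. The hypoxia genes were not chosen in this way, so their overlap at 1.5 h is not set against it. At 8 h limma called 5 of the 26 hypoxia genes higher with ammonium and 1 lower, or 13 higher without replicate 1 of nitrate and 8 without replicate 1 of ammonium. AT3G29970, called higher, did not pass without replicate 2 or 3 of nitrate or of ammonium (limma adjusted p of 0.0898 to 0.112). In either direction 18 of the 26 had an unadjusted limma p below 0.05 at 8 h, and the median ion difference was 0.89. The share of all probe sets at that unadjusted p was not counted, so the 18 have no share to be read against. At 1.5 h limma called 4 higher with ammonium and 1 lower, with a median of 0.54. Of those higher, AT5G66985, AT1G74940 and AT1G26270 did not pass without replicate 3 of early nitrate or of early ammonium (limma adjusted p of 0.0513 to 0.211). AT5G66985 and AT1G74940 also did not pass without replicate 1 of either. AT3G10020 passed without replicate 1 of early nitrate and AT5G44730 without replicate 2 (0.0188 and 0.00878). Against the roots before supply, 13 of the 26 hypoxia genes were called higher and 1 lower with early ammonium, and 6 higher and 2 lower with early nitrate. Of all probe sets 5.97% were called higher and 7.83% lower with early ammonium, and 5.97% and 7.29% with early nitrate. The part of low oxygen in the members' values was not tested.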

How the data were processed

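Root RNA of 15 samples was hybridised to 1 array each, and the early and late times are 1.5 h and 8 h. The deposited values were log2 expression values per probe set; RMA and limma are named per the submitters' processing notes, with no version or role, and the values themselves showed the log2 scale. No scanner files were used here, so background correction was not checked. All 22746 probe sets were used without a filter. The array's annotation gave 1 gene for 13513, several for 503 and none for 8730, and RefSeq genes of TAIR10.1 named 13436 of the first.

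limma 3.58.1 (R 4.3.3) was run on every probe set, with 5 group means over the 15 samples (prior degrees of freedom 5.11, residual 10, median residual SD 0.115), with two-sided p-values adjusted by Benjamini-Hochberg within each contrast and called below 0.05. The procedure was tested on simulated data. Figures used Python 3.11.15. With 3 samples a group, the number of arrays limits the precision.

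The members, lists and tests were chosen with earlier results of these data known, so only ammonium against nitrate at 8 h was tested on members. Sample values were to be given for the 10 listed members with the largest rise, for up to 6 with the largest and 6 with the smallest called difference at 8 h, for list members and transcription factors, and for 3 unlisted members by rise. The other genes and probe sets given sample by sample, and the grouping by role, were chosen after their values were seen. A gene on a list was represented by its brightest probe set. Between nitrate and ammonium at 8 h, the correlations of deviations within replicate numbers were 0.0424, -0.0941 and 0.189. The highest with another number were 0.151, 0.0644 and -0.0826, so only replicate 3 was paired there. Between the roots before supply and early ammonium, a contrast not tested on members, the correlations were 0.3, 0.101 and 0.185. The highest with another number were -0.101, 0.104 and 0.0306, so replicate 2 was not paired there. Alternatives were normalization, samples and groups in the fit, weights, variance model, a level filter and other thresholds. Promoter motifs were not run, and no sequence was used here.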

Additional observations from a re-analysis of the deposited data

How the results depend on the processing

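The count of members higher with ammonium at 8 h was 36, from 31 to 41 when 1 sample at 8 h was left out, and within 1.5 times of 36 under each of the other alternatives run. The count of members lower was 2; it was 1 with a second quantile normalization, with only the 2 groups in the fit, with weights per array and with a robust fit that lets variance follow the level, and 1 to 3 when 1 sample was left out. With the replicate number as a block, members higher were 36 (35 of them shared) and lower 2, and 2674 probe sets were called against 2430; of the members given by name AT2G32020 lost its call (adjusted p of 0.0547) and AT1G36640 gained one (0.00783). By their correlations the numbers paired the samples at 8 h for replicate 3 only. With the level criterion taken without the 8 h groups, an alternative chosen after seeing the data, the set had 77 members, 35 higher and 2 lower. The set itself had 62 to 95 probe sets when 1 sample was left out, and 44 with an ammonium threshold of 1; with group medians it had 76, of which 61 were shared. Members still at least 0.8 above the level before supply at 8 h of ammonium were 24 to 36 against 31 when 1 sample was left out. The sign of the ion difference at 8 h turned for members that were never called. When 1 sample was left out, AR781 ran from -0.44 to 0.14, AT2G25460 from -0.32 to 0.02, AT1G18390 from -0.05 to 0.05 (0.02 with array weights) and AT4G36500 from -0.03 to 0.23. The causes were not tested. Values near or below 5 are not shown to be above background, which limits what low members can show.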
